A study of Mus musculus with 30 samples.

Results

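Genes of cytotoxic lymphocytes, the natural killer (NK) cells and CD8 T cells that kill other cells, were followed in mouse heart, kidney, brain and vessel during an infusion of angiotensin II. The 10 genes were chosen by symbol, with earlier results of these data known: Gzmb, Gzma, Prf1, Nkg7, Ccl5, Klrd1, Klrk1, Ncr1, Il2rb and Cd3g. They are 10 of the 18193 genes to which the array annotation gives a single symbol, and 12 of its 45037 probe sets report them. Prf1 and Il2rb each had 2 probe sets, of which the brighter over all arrays was tested, and the other genes had 1. The question put to the data was whether Gzmb in heart moved with other genes of T cells and NK cells.

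The mice were male C57BL/6 animals of 8 to 10 weeks. They were infused with angiotensin II, a peptide that constricts vessels, releases aldosterone and so raises blood pressure, for 1, 3 or 7 days, with osmotic pumps set to 1500 ng of peptide per kg body weight and minute. A day 0 group had no angiotensin II, and the labels say neither whether it carried a pump nor which organs came from the same mouse. There were 30 arrays: 12 of heart (3 biological replicates for each of the 4 times), 8 of kidney (2 for each time), 6 of brain (2 for each of days 0, 3 and 7) and 4 of vessel (1 for each time).

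Killing by these cells works through granules. Perforin (Prf1) forms pores in the target membrane, and the granzymes are serine proteases that enter through them, granzyme B (Gzmb) cutting caspases and Bid, and granzyme A (Gzma) having a trypsin-like specificity. Nkg7 is a granule membrane protein of NK cells and T cells, and Ccl5 is a chemokine that both store and release. Klrd1 (CD94), Klrk1 (NKG2D) and Ncr1 (NKp46) are receptors of the NK cell surface, the first 2 shared with some CD8 T cells. Il2rb is the beta chain through which interleukin 2 and interleukin 15 act, and Cd3g is a chain of the T cell receptor complex, which mature NK cells lack at the surface.

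The promoters of Gzmb, Gzma and Nkg7 are shown because Gzma and Nkg7 had the highest correlations with Gzmb among the 10 genes over the heart arrays, and that of Prf1 because its estimated change in heart was close to 0. The sequences are those of RefSeq on build GRCm38.p6, from 250 bases before to 50 bases after the start of each gene, 5′ to 3′ on the gene's strand. They lie at chr14:56262285-56262584 (Gzmb, minus strand), chr13:113100932-113101231 (Gzma, minus strand), chr7:43436888-43437187 (Nkg7, plus strand) and chr10:61297586-61297885 (Prf1, plus strand). Capitals mark matches, on either strand, to letters bound by factors of lymphocytes or of their activation: AP-1 (TGACTCA or TGAGTCA), Runx (ACCACA), T-box (AGGTGT) and STAT (TTCNNNGAA).
Gzmb: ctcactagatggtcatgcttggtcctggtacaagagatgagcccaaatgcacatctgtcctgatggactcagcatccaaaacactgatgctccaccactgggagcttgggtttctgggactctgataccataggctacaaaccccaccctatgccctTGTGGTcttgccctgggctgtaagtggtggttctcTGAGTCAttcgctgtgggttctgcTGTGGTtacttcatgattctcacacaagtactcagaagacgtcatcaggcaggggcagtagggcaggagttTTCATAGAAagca
Gzma: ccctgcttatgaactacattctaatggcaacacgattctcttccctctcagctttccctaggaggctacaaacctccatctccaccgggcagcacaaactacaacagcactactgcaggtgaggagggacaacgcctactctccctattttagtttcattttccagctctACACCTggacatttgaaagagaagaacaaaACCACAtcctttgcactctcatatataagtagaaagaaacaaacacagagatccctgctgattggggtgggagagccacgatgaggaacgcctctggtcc
Nkg7: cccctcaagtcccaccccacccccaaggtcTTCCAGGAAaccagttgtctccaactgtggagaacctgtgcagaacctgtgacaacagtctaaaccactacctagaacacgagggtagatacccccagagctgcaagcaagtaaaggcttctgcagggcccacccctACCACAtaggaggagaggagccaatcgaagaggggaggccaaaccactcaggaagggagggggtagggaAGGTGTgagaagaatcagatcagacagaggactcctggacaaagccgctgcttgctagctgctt
Prf1: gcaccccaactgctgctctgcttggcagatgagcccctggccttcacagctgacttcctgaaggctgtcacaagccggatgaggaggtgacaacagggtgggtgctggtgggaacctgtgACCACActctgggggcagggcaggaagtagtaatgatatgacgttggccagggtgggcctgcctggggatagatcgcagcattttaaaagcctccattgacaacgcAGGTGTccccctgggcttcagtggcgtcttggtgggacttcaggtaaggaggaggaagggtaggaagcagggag
Of the 10 genes, 7 had a promoter in the table, and Ccl5, Klrd1 and Il2rb had none. The Gzmb window held an AP-1 match from position -58 to -52, Runx matches starting at -93 and -34, and a STAT match starting 38 bases into the transcript, with position 1 at the gene's start. That of Gzma held a T-box match at -80 and a Runx match at -50, that of Nkg7 a STAT match at -220, a Runx match at -83 and a T-box match at -14, and that of Prf1 a Runx match at -130 and a T-box match at -24. Runx letters thus occurred in all 4 windows shown, and T-box letters in all but that of Gzmb. Of the members whose promoters are not shown, Klrk1 and Ncr1 had Runx but no T-box letters, and Cd3g had T-box but no Runx letters. Klrk1 also had an AP-1 match. Among 32851 promoters of the same length, 16.8% held the Runx letters, 13.7% the T-box letters, 8.3% the STAT letters and 5.2% the AP-1 letters, so short matches of this kind are common and show no binding.

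Values are the deposited intensities of single probe sets, on a linear scale, and levels of different genes are not compared because each probe set has its own brightness. Array medians lay between 35.2 and 37.7, and the 40th percentile of an array, below which a value was treated as low, between 22.8 and 26.5. Most of the 10 genes sat not far above that level, so their low values carry little information. To be tested in a tissue, a gene had to exceed the percentile on a number of arrays no smaller than the smallest group. In heart 8 of the 10 passed, and Klrk1 and Ncr1 did not. The same 8 passed in kidney, 4 passed in brain (Ccl5, Il2rb, Nkg7 and Prf1) and 9 in vessel (all but Ncr1). Changes are differences of log2(intensity + 16), fitted with limma, a linear model with moderated variances, and they understate the change of weak signals. A gene is said to have risen or fallen where its adjusted p, over all genes tested in the comparison, was under 0.05.

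Tissue markers stood where the labels put them, with exceptions on some arrays. The cardiac myosin Myh6 read 13300 to 15500 in heart, at most 22.5 in brain and at most 19.1 in kidney, uromodulin (Umod) 10200 to 13000 in kidney, the synaptic Snap25 7710 to 8670 in brain and the smooth muscle myosin Myh11 2480 to 5060 in vessel. The adrenal gene Star read 2150 and 3690 in replicate 2 of kidney days 0 and 3, against at most 17.3 in the other kidney arrays. The fat gene Adipoq read 2320 to 6180 in both kidney arrays of day 1 and replicate 2 of day 3, and at most 235 in the rest. The kidney gene Kap read 4030 in brain day 0 replicate 1 and 3510 in brain day 7 replicate 2, against at most 103 in the other 4 brain arrays. In brain day 0 replicate 2, 10 neutrophil genes summed to 9780, against 607 to 1188 on the other brain arrays. In heart, Kap ran from 11.1 to 807, with a median of 45. The 4 kidney markers tested there summed to 959 in day 0 replicate 1 and 434 in day 1 replicate 2. On the other heart arrays they summed to 154 to 232. The median of 5 brain markers stood 0.86 above the day 0 mean in heart day 1 replicate 2, against at most 0.08 on the other heart arrays. The vessel arrays also carried Adipoq (9500 to 12800) and Myh6 (324 to 4370). Their part in the results on the lymphocyte genes was not tested. In whole-tissue RNA, more cells of a type and more RNA of a gene per cell cannot be told apart.

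In heart, Gzmb rose on day 1 and was back at or below its starting level by day 3. It read 29.1, 40 and 39.2 in replicates 1, 2 and 3 of day 0, and 250, 83.5 and 172 on day 1. It then read 23.6, 22.1 and 23.5 on day 3, and 28.7, 41.9 and 55 on day 7. Every day 1 array lay above every other heart array, every day 3 array lay below every day 0 array, and the day 3 arrays differed by less than those of any other day. The day 3 values lay below the low-value percentile of their arrays, so their exact level and small spread carry little information. The rise from day 0 to day 1 was 1.72 ± 0.27 on the log2 scale (SE, n = 3 against 3; 95% confidence interval 1.13 to 2.31), 3.30-fold, with an adjusted p of 0.0037. Gzmb passed in all 12 fits that left out a single heart array, with changes of 1.40 to 2.11 and an adjusted p of at most 0.024. The 3 day 1 arrays nevertheless differed from each other by a wide margin, with a mean intensity of 169 and an SD of 83.5.

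Gzma, the other granzyme of the set, was highest in 2 of the 3 day 1 arrays, and its change on day 1 did not pass. It read 37.7, 69.8 and 48 on day 0, 173, 57.5 and 135 on day 1, 28.8, 28.6 and 46.8 on day 3, and 27.6, 53.5 and 51.6 on day 7. Replicates 1 and 3 of day 1 stood above all other heart arrays, and replicate 2 fell within the day 0 range. Its change from day 0 to day 1 was 0.94 ± 0.31, with an adjusted p of 0.059, which missed the threshold.

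Nkg7 read 29.4, 52.4 and 39.1 on day 0, 132, 54.2 and 57.4 on day 1, 26, 40.8 and 34 on day 3, and 23.1, 45.4 and 58 on day 7. The day 1 arrays lay above those of day 0 without overlap, 2 of them by a small margin. The change was 0.72 ± 0.28 with an adjusted p of 0.11. Groups that did not overlap with the later one higher were found for 11.4% of all genes in this comparison, and for 3 of the 8 lymphocyte genes tested (Gzmb, Klrd1 and Nkg7).

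Prf1 gave an estimate of no change where Gzmb rose. Its tested probe set read 38.6, 46.5 and 43.6 on day 0 and 44.2, 42.2 and 42.3 on day 1, and between 33.6 and 52.7 on the later days. The change from day 0 to day 1 was 0.00 ± 0.12, with a confidence interval of -0.25 to 0.25. The second probe set, at 31.5 to 42.4 over the 12 arrays, gave -0.02 ± 0.09. Both probe sets lay above the low-value percentile on all 12 arrays, and the interval bounds the reported intensity only. The tested probe set read 44.2 to 47.3 in kidney and 32.3 to 44.5 in vessel. It was brightest in brain, at 44.5 to 69.7, where Gzmb, Gzma, Klrd1 and Cd3g lay in the low range, while the second read 21.8 to 26.3 there. Whether the tested probe set reports Prf1 RNA at these levels was not tested, which also limits its r with Gzmb given below.

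**Figure D1:**
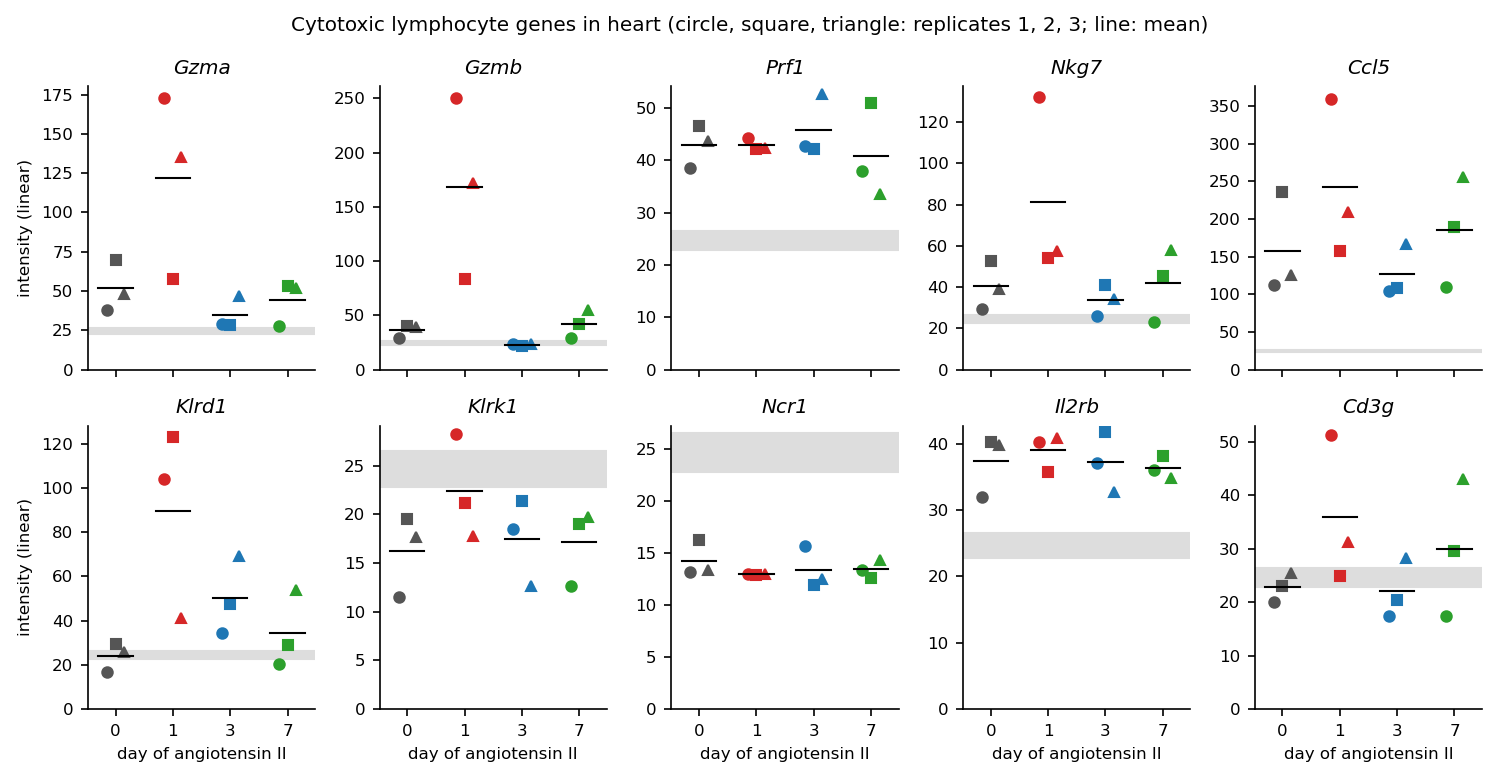
Deposited intensity (linear axis from 0) of each of the 10 genes by day of angiotensin II in the 12 heart arrays; points are arrays, lines are means of 3, and the grey band spans the 40th percentiles of the arrays. The Gzmb arrays of day 1 (83.5 to 250) stand above all others, Gzma has 2 such arrays, and Klrk1 and Ncr1 lie in or below the band except for Klrk1 in replicate 1 of day 1 (28.3).

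Klrd1 was the only other gene of the set that rose on day 1. It read 17, 29.4 and 26 on day 0, 104, 123 and 41.3 on day 1, 34.4, 47.4 and 69.2 on day 3, and 20.3, 28.9 and 54 on day 7. Day 1 lay above day 0 on every array, and so did day 3, while day 7 overlapped it. On day 0, replicates 1 and 3 lay in the low range. The order of the day 1 arrays differed from that of Gzmb: replicate 2, the lowest for Gzmb, was the highest for Klrd1, and replicate 3 was the lowest. The change was 1.31 ± 0.32, 2.48-fold, with an adjusted p of 0.019. This call held in 8 of 12 fits without a single array and was lost without replicate 1 or 2 of day 0 (adjusted p 0.083 and 0.052) and without replicate 1 or 2 of day 1 (0.094 and 0.083).

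Gzmb and Klrd1 are thus 2 of 8 tested genes that rose between day 0 and day 1, and none fell. Over all genes, 4.9% rose and 8.62% fell. The median change of the 8 was 0.64, beside -0.02 over all 13966 genes tested, and all 8 estimates lay at or above 0.

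None of the other surface and signalling genes passed. Ccl5 read 113, 236 and 125 on day 0 and 360, 157 and 210 on day 1, and its groups overlapped (0.56 ± 0.34, adjusted p 0.31). Cd3g read 20, 23.1 and 25.4 on day 0 and 51.4, 25 and 31.3 on day 1 (0.39 ± 0.21, adjusted p 0.24). Replicate 1 of day 1 was the highest of the 12 heart arrays for both genes, while replicate 2 fell within the day 0 range. Il2rb stayed between 32 and 41.8 over all 12 arrays (0.05 ± 0.10 at day 1), and its second probe set gave -0.05 ± 0.08. Klrk1 exceeded the low-value percentile on 1 of 12 arrays, day 1 replicate 1 at 28.3, and Ncr1 on none, with 11.9 to 16.2. Ncr1, which among these genes is the one most specific to NK cells, was therefore not detected above the low range in heart at any time.

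**Figure D2:**
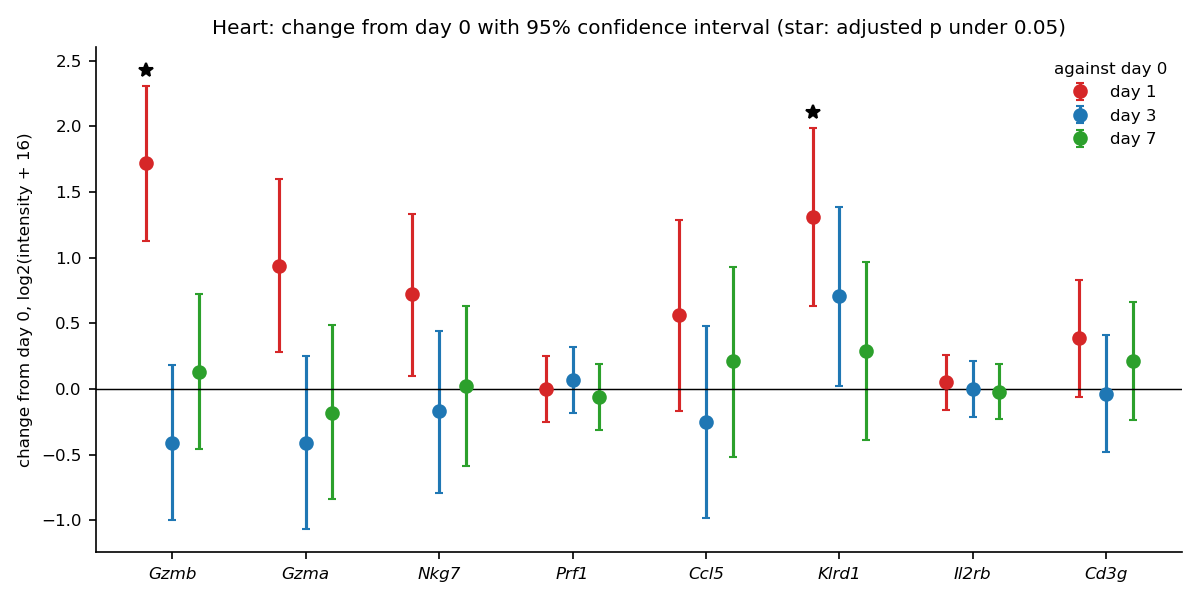
Change from day 0 in heart on the log2(intensity + 16) scale for the 8 tested genes at days 1, 3 and 7; points are estimates from 3 arrays against 3, bars are 95% confidence intervals, and stars mark an adjusted p under 0.05. Stars stand only over Gzmb and Klrd1 at day 1.

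The day 1 levels of Gzmb did not last. With limma, none of the 8 genes rose or fell between day 0 and day 3 (0.0716% of all genes rose and 0.0143% fell; 1683 of 13966 had an unadjusted p under 0.05, among them Klrd1). Gzmb stood at -0.41 ± 0.27 from day 0 (adjusted p 0.60), below it on every array as 10.5% of all genes were, and Klrd1 at 0.71 ± 0.32 (adjusted p 0.40), above it on every array as 7.4% were. Against day 1, Gzmb, in the low range on day 3, fell by 2.13 ± 0.27 (adjusted p 0.0091) and stood 4.38-fold lower, and Gzma fell by 1.35 ± 0.31 (adjusted p 0.030). These were 2 of 8 where 1.48% of all genes fell and 2.86% rose. Nkg7 gave -0.89 ± 0.28 (adjusted p 0.093) with groups that did not overlap, as for 7.11% of all genes in that direction. Both falls depended on the arrays used: the Gzmb call was lost without day 3 replicate 2 (adjusted p 0.057) and with only the 6 arrays of these days (0.12), and the Gzma call without any of day 1 replicate 1, day 3 replicate 1 or day 3 replicate 2 and with no filter (0.052).

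At day 7, none of the 8 genes tested with limma had risen or fallen from day 0 (0.043% of all genes rose and 0.00716% fell; 1246 had an unadjusted p under 0.05). Estimates ran from -0.18 for Gzma to 0.29 for Klrd1. From day 1 to day 7 Gzmb fell by 1.59 ± 0.27 (adjusted p 0.013), 1 of 8 where 2.07% of all genes fell and 2.69% rose, and Gzma (-1.12 ± 0.31, adjusted p 0.055) and Klrd1 (-1.02 ± 0.32, adjusted p 0.081) missed the threshold. Leaving out day 1 replicate 1, day 7 replicate 1 or day 7 replicate 2 brought the Gzmb value to an adjusted p of 0.053 to 0.062. From day 3 to day 7 no gene of the set, and none of all 13966, passed (986 had an unadjusted p under 0.05). Gzmb was higher on every day 7 array than on any day 3 array (0.54 ± 0.27, adjusted p 0.71), and groups not overlapping in that direction were found for 6.53% of all genes.

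Over the heart arrays Gzmb had high correlations with Gzma, Nkg7, Ccl5 and Cd3g and low ones with Prf1, Ncr1 and Il2rb. Over the 12 arrays its Pearson r was 0.94 with Gzma, 0.86 with Nkg7, 0.75 with Ccl5 and 0.74 with Cd3g, with two-sided permutation p-values of 8e-05, 7e-05, 0.0047 and 0.0094. With Klrk1 it was 0.61 (permutation p 0.036), with Klrd1 0.55 (0.061), with Il2rb 0.38 (0.22), with Prf1 -0.05 (0.87) and with Ncr1 -0.15 (0.68). Spearman's rho was 0.88 with Gzma (p 0.00039), 0.82 with Nkg7 (0.0018), 0.77 with Ccl5 (0.005), 0.71 with Cd3g (0.013), 0.41 with Klrk1 (0.18), 0.33 with Klrd1 (0.30), 0.19 with Il2rb (0.56), 0.10 with Ncr1 (0.75) and 0.03 with Prf1 (0.94). Of the 9 relations, 5 had an unadjusted Pearson p under 0.05, among them Klrk1, which exceeded the low-value percentile on 1 of 12 arrays. Adjusted over all 13965 genes set against Gzmb in heart, none of the tested members passed: the adjusted p was 0.06 for Gzma and Nkg7, 0.16 for Ccl5, 0.19 for Cd3g and 0.31 for Klrd1. A positive r with an adjusted p under 0.05 was found for 0.00716% of all genes, a single gene, and one with an unadjusted p under 0.05 for 6.26%, beside 4 of the 7 members tested.

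The day 1 arrays carry much of the spread, since all 3 stand apart from the rest for Gzmb. The permutations shuffled arrays across days, so a step shared on day 1 can by itself give a small p. Without the 2 arrays farthest from its median, day 1 replicates 1 and 3, r was 0.74 with Nkg7, 0.68 with Gzma, 0.55 with Ccl5, 0.52 with Cd3g and Klrd1 and 0.48 with Klrk1. Leaving out day 1 replicate 1 alone cut the number of members with an unadjusted p under 0.05 from 5 to 2, Gzma and Nkg7. Among the 9 arrays of days 0, 3 and 7, a subset added after the data were seen, r was 0.77 with Ccl5, 0.75 with Cd3g, 0.73 with Nkg7 and 0.71 with Gzma, with exact permutation p-values of 0.018, 0.016, 0.028 and 0.035 over all 362880 orders. None passed after adjustment over all genes, the adjusted p being 0.63 to 0.70, and 3.72% of all genes had a positive r with an unadjusted p under 0.05. With Klrd1 the value over these 9 arrays was -0.07 (exact permutation p 0.85).

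Deviations from the mean of each day describe the arrays without the steps between days. There Gzmb and Gzma had an r of 0.90, Gzmb and Cd3g 0.82, Gzmb and Nkg7 0.79 and Gzmb and Ccl5 0.77, while Gzmb and Klrd1 had 0.05. Over the 9 arrays of days 0, 3 and 7 these within-day values were 0.86 for Nkg7 and Cd3g, 0.79 for Ccl5 and Klrd1 and 0.74 for Gzma, so the low value of Klrd1 over all 12 arrays was found with the day 1 arrays and not without them. On day 3 Gzmb itself was in the low range and spanned only 22.1 to 23.6, and its highest array, replicate 1, was the lowest of that day for Nkg7, Ccl5 and Cd3g.

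**Figure D3:**
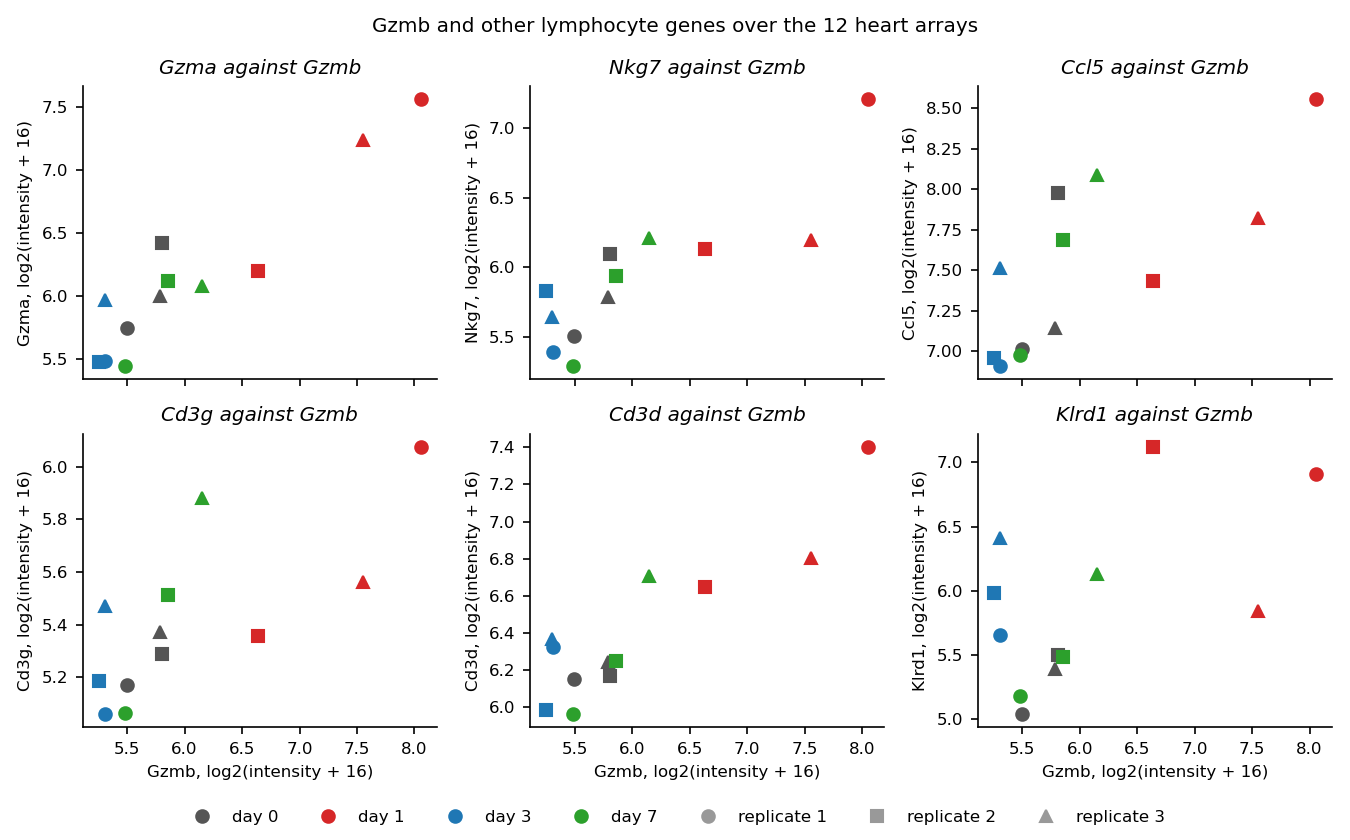
Gzmb (horizontal axis) against Gzma, Nkg7, Ccl5, Cd3g, Cd3d and Klrd1 (vertical axes), all as log2(intensity + 16), over the 12 heart arrays; colour gives the day and shape the replicate number. Gzma (r = 0.94) is highest in day 1 replicates 1 and 3, without which r is 0.68, and the 2 highest Klrd1 arrays are day 1 replicates 2 and 1, with replicate 3 well below.

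Of all genes tested in heart, those with the highest r with Gzmb over the 12 arrays were Gzma (0.94), Ms4a4b (0.93), Trbv1 (0.93), Dctn6 (0.92) and 6430548M08Rik (0.91). Ms4a4b encodes a membrane protein of T cells, Trbv1 is a variable segment of the T cell receptor beta chain, and Dctn6 is a dynactin subunit with no particular tie to lymphocytes. Ms4a4b read 75.8, 76.2 and 70 on day 0, 341, 163 and 210 on day 1, 48.5, 36.8 and 79.7 on day 3, and 35.4, 95.7 and 140 on day 7. Its change from day 0 to day 1 was 1.44 ± 0.35, and its order over the day 1 arrays was that of Gzmb. Because Ms4a4b was picked by its r with Gzmb over these same arrays, both largely follow from that choice. They are no separate result. Among 13965 genes Nkg7 ranked 19, Ccl5 141, Cd3g 147, Klrd1 1017, Il2rb 2265 and Prf1 7060.

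Among T cell genes outside the set, Cd3d, Cd8b1 and Il7r rose at day 1, the last 2 from the low range. Of 20 listed T cell genes, 18 were on the array and 15 were tested in heart; 3 rose and none fell between day 0 and day 1, where 4.9% of all genes rose and 8.62% fell. The list median was 0.08, beside -0.02 over all genes. Cd3d, the CD3 delta chain, read 55.2, 55.9 and 59.8 on day 0 and 153, 84.2 and 95.6 on day 1 and rose by 0.76 ± 0.20 (adjusted p 0.028). Cd8b1, the beta chain of the CD8 coreceptor, read 12.9, 15.3 and 14.9 on day 0 and 47.3, 27 and 26.4 on day 1 and rose by 0.68 ± 0.14 (adjusted p 0.010). Its values on all other days, at most 22.2, lay in the low range, so it passed the filter only through its day 1 arrays and had to differ there. Il7r, the interleukin 7 receptor of resting T cells, rose by 0.31 ± 0.09 (adjusted p 0.039) from values at or below 19.9 that lie in the low range.

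Other T cell genes, named after their values were seen, did not pass. Cd8a, the alpha chain of CD8, read 44.8, 42 and 49.4 on day 0 and 54.2, 41.2 and 47.1 on day 1 (0.05 ± 0.11, adjusted p 0.84), and Cd4 gave 0.00 ± 0.13. Cd3e gave 0.26 ± 0.10 (adjusted p 0.12) with day 1 above day 0 on every array, as for 11.4% of all genes. Over the 12 arrays the r with Gzmb was 0.90 for Cd3d, 0.89 for Cd3e, 0.86 for Cd8b1 and 0.84 for the adaptor Lat, against 0.38 for Cd8a and 0.21 for Cd4. Cd8b1 passed the filter only through its day 1 arrays, on which Gzmb was highest. Its high r was thus favoured by the filter and is no separate result. The median r was 0.38 over the 15 T cell genes, 0.34 over the 12 other cytotoxic and NK genes tested, 0.74 over the 7 members and -0.04 over all genes.

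Of 32 further cytotoxic and NK genes listed, 30 were on the array and 18 of these failed the filter on low values in heart. Among the 12 tested, 1 rose and 1 fell at day 1, near the 4.9% and 8.62% of all genes, with a list median of 0.07. Gzmk, a granzyme of memory T cells, read 45.9, 35.9 and 46.1 on day 0 and 148, 70.2 and 73.6 on day 1 and rose by 0.89 ± 0.21 (adjusted p 0.016; r with Gzmb 0.90). Gzmm, a granzyme with its own cleavage specificity, went the other way: it read 155, 149 and 144 on day 0 and 77.1, 98.2 and 106 on day 1, and fell by 0.60 ± 0.11 (adjusted p 0.0056). On days 3 and 7 Gzmm read 85.5 to 101, again below every day 0 array, without a call. Of all genes, 10.5% lay below every day 0 array on day 3 and 11.9% on day 7. Named after their values were seen, Fasl, the death ligand, lay between 9.62 and 15.3 on all 12 arrays and Ifng, the cytokine interferon gamma, between 8.43 and 15.8.

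Of 22 listed regulators of these cells, 17 were tested; 1 rose and 2 fell at day 1, near the 4.9% and 8.62% of all genes that did. Il18r1, a chain of the interleukin 18 receptor, rose by 0.68 ± 0.15 (adjusted p 0.015; 30.5, 22.3 and 26.4 on day 0, and 69.6, 45.2 and 42.7 on day 1). Il15, the cytokine that maintains NK cells and memory CD8 T cells, read 722, 694 and 690 on day 0 and 349, 255 and 552 on day 1, and fell by 0.91 ± 0.19 (adjusted p 0.012). Its receptor chain Il15ra fell by 0.53 ± 0.15 (adjusted p 0.033). Eomes, a T-box factor of killer lymphocytes named after its values were seen, gave 0.14 ± 0.14 (adjusted p 0.57).

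Of the genes listed as partners of the granule and chemokine pathway, 9 of 18 were tested in heart, and at day 1 4 rose and 1 fell, where 4.9% of all genes rose and 8.62% fell. The Ccl5 receptor Ccr1 rose by 1.90 ± 0.41 (adjusted p 0.012), the serpin Serpinb6b by 0.92 ± 0.12 (0.0014), Bid, a target of granzyme B, by 0.86 ± 0.20 (0.017) and cathepsin C (Ctsc), the protease that activates granzymes, by 0.80 ± 0.21 (0.025). Parp1 fell by 0.33 ± 0.09 (0.038). Bid read 12.9 to 17.4 on day 0, in the low range. Ccr1, Ctsc and Bid are also made by myeloid cells. All 4 partners that rose, Serpinb6b among them, were highest in day 1 replicate 2, which of the 3 day 1 arrays was the lowest for Gzmb. Which cells gave these values was not tested.

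Markers of other leukocytes moved at day 1 too, in another order over the 3 arrays. Of 13 neutrophil genes tested, 7 rose and none fell, and of 14 macrophage genes 4 rose and none fell, where 4.9% of all genes rose and 8.62% fell. Relative to the mean of day 0, replicates 1, 2 and 3 of day 1 had a neutrophil median of 1.60, 1.52 and 0.28 and a macrophage median of 0.33, 0.77 and 0.15. Gzmb stood 2.36, 0.94 and 1.86 above its own day 0 mean, and Gzma 1.51, 0.14 and 1.18, so replicate 3 was high for both granzymes and low for neutrophil and macrophage genes. Klrd1, at 1.59, 1.80 and 0.53, had the order of the macrophage median. The summed intensity of the neutrophil genes was 605 to 1761 on day 0 and 2391 to 10080 on day 1, and that of the macrophage genes 9904 to 12834 and 12716 to 19615.

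None of 6 mast cell and basophil genes passed at day 1 with limma, where 4.9% of all genes rose and 8.62% fell (28.5% had an unadjusted p under 0.05). Their summed intensity was 275 to 333 on day 0 and 261 to 274 on day 1. Cma1 gave -0.38 ± 0.14 at day 1 (adjusted p 0.098), below day 0 on every array as 18.5% of all genes were. At day 7 it gave -0.48 ± 0.14 (adjusted p 0.40), below day 0 on every array as 11.9% were. None of 3 red cell genes passed at day 1, Slc4a1 giving 0.62 ± 0.25 (adjusted p 0.13) and at day 7 0.65 ± 0.25 (0.50). Of 6 B cell genes, Jchain, the joining chain of antibody polymers, alone passed at day 1. It read 13.5, 18.9 and 25.4 on day 0, in the low range, and 74.5, 70.6 and 64 on day 1. It rose by 1.29 ± 0.31 (adjusted p 0.017), where 4.9% of all genes rose and 8.62% fell. None of these lists, nor those of T cells, NK cells, regulators or partners, had a member that passed at day 3 or day 7 against day 0. Over all genes, 0.0716% rose and 0.0143% fell at day 3, and 0.043% rose and 0.00716% fell at day 7. The part of these cells in the lymphocyte values was not tested.

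**Figure D4:**
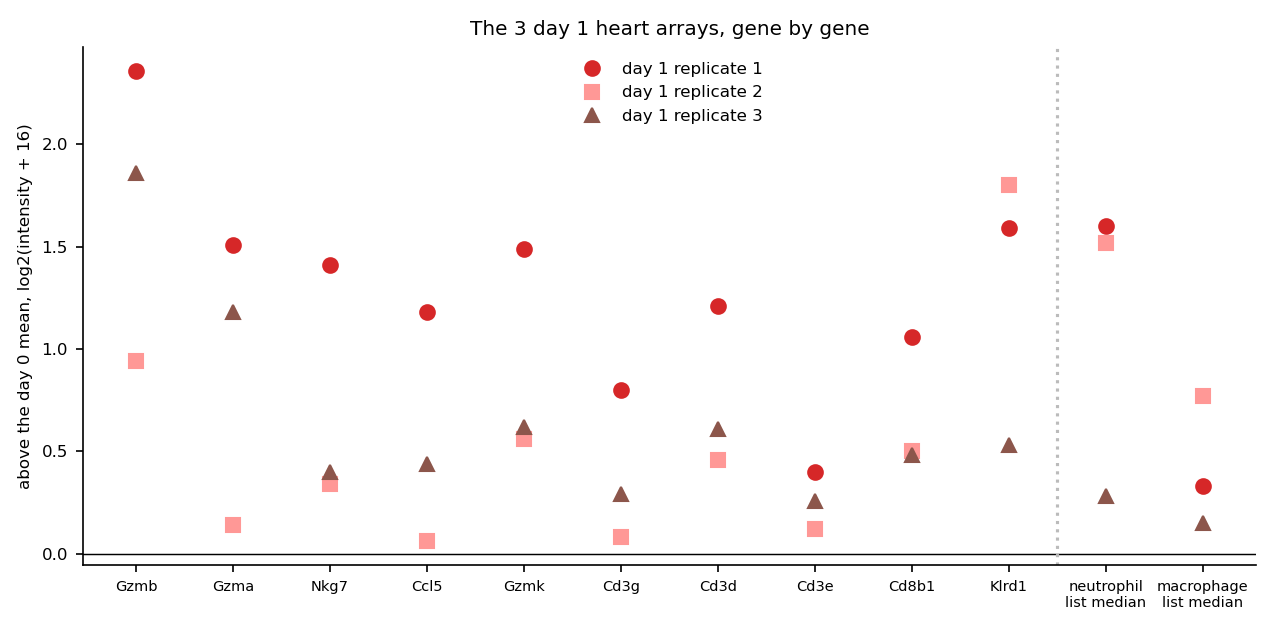
Height above the day 0 mean, on the log2(intensity + 16) scale, of lymphocyte genes and of the medians of 13 neutrophil and 14 macrophage genes in each of the 3 day 1 heart arrays. Replicate 2 is lowest for Gzmb and Gzma (0.94 and 0.14) and replicate 3 is lowest for Klrd1 and the 2 list medians (0.53, 0.28 and 0.15).

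In kidney none of the 8 genes tested with limma rose or fell at any time. Gzmb read 32.9 and 32.8 in the 2 day 0 arrays, 48.3 and 22.4 on day 1, 19.8 and 29 on day 3, and 26.8 and 78.3 on day 7. Changes from day 0 to day 1 ran from -0.14 (Cd3g) to 0.19 (Gzma), where 0.262% of all genes rose and 0.24% fell and 2316 of 14149 had an unadjusted p under 0.05. No gene of any kind passed at day 3 or day 7 (0% in each direction; 1195 and 950 with an unadjusted p under 0.05). One array stood out: day 7 replicate 2 was the highest kidney array for Gzmb (78.3), Gzma (106), Ccl5 (364) and Nkg7 (52.1), where replicate 1 of that day read 26.8, 31.3, 102 and 31.8. On that array the median of the 14 macrophage genes stood 0.87 above the day 0 mean, against at most 0.06 on the other kidney arrays, and that of the 12 T cell genes 0.02.

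Over the 8 kidney arrays the r of Gzmb was 0.96 with Gzma (exact permutation p 0.0017), 0.93 with Ccl5 (0.00084), 0.90 with Nkg7 (0.0006) and 0.84 with Klrk1 (0.01). It was 0.52 with Klrd1 (exact permutation p 0.18), 0.40 with Cd3g (0.34) and -0.05 with Il2rb (0.91). Prf1 and Ncr1 each gave -0.46 (exact permutation p 0.24 and 0.25). Spearman's rho was 0.81 for Gzma (p 0.022), 0.88 for Ccl5 (0.0072) and 0.93 for Nkg7 (0.0022). Without the 2 arrays farthest from the Gzmb median, r was 0.66, 0.83 and 0.85. Klrk1 exceeded the low-value percentile on 0 of the 8 kidney arrays. Its Spearman's rho was 0.62 (permutation p 0.11), and its r without those 2 arrays was 0.37. Adjusted over all 14148 genes the p was 1.0 for each member tested, which leaves out Klrk1 and Ncr1. Of all genes, 2.21% had a positive r with an unadjusted p under 0.05.

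The response at day 1 was set against that of kidney in a joint fit. Gzmb differed by 1.70 ± 0.46 between the tissues (heart change minus kidney change; confidence interval 0.73 to 2.66, adjusted p 0.048), the only one of the 8 to pass, where 1.02% of all genes were higher and 2.59% lower. Klrd1 gave 1.34 ± 0.45 (adjusted p 0.11) and Gzma 0.75 ± 0.56 (0.52). This difference sat at the threshold: with no filter on low values the adjusted p was 0.062, and 7 of 10 fits without a single array lost it, with adjusted p up to 0.21. Star was high in kidney day 0 replicate 2 and Adipoq in both kidney day 1 arrays, as given above. By limma none of the 8 passed between heart and kidney responses at day 3, where 0.0409% of all genes were higher in heart and 0.0205% lower, or at day 7, where 0.0136% were higher and 0.0136% lower (1271 and 679 of 14657 genes had an unadjusted p under 0.05).

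Before angiotensin II, none of the 8 genes passed between heart and kidney with limma, where 28.6% of all genes were higher and 27.4% lower in heart and 8793 of 14657 had an unadjusted p under 0.05. Both stood above brain for Ccl5, which read 113, 236 and 125 in heart, 120 and 151 in kidney, and 30.8 and 42.4 in brain. The difference was 1.67 ± 0.45 for heart (adjusted p 0.0025) and 1.53 ± 0.49 for kidney (adjusted p 0.010). Heart also exceeded brain for Gzma (1.04 ± 0.40, adjusted p 0.025) and Il2rb (0.25 ± 0.10, adjusted p 0.040). These are 3 of 8 where 37.6% of all genes were higher in heart than in brain and 35.6% lower, and 1 of 8 where 33.7% were higher in kidney than in brain. Genes that passed the filter in either tissue were tested. Gzma exceeded the low-value percentile on 0 of the 6 brain arrays and entered through heart, so the filter favoured a higher value there. Its call is therefore no separate result. Gzmb, Klrd1 and Cd3g also failed the filter in brain. The brain array that carried Kap, day 0 replicate 1, entered these values; without it, 1 of 8 passed between heart and brain and none between kidney and brain. Without heart day 0 replicate 2, 1 of 8 passed between heart and brain.

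In brain Gzmb (17.5 to 22.6 over the 6 arrays), Gzma (13.3 to 19.9), Klrd1 (11 to 14.1) and Cd3g (10.2 to 13.1) lay in the low range. Klrk1 (6.33 to 9.53) and Ncr1 (10.2 to 14.2) did so too, and Nkg7 read 14.7 to 27.5. Prf1 (44.5 to 69.7), Ccl5 (30.8 to 42.4) and Il2rb (25.9 to 39.8) exceeded the low-value percentile on all 6 arrays. None of the 4 genes tested with limma changed at day 3 or day 7 (0% of all genes in each direction; 1039 and 996 of 14097 with an unadjusted p under 0.05). By its median over all arrays of a tissue, Gzmb stood highest in vessel (79.9, 33.3 to 162), then heart (39.6, 22.1 to 250), kidney (30.9, 19.8 to 78.3) and brain (18.9, 17.5 to 22.6). These medians pool days, of which brain lacks day 1. The ranges of vessel, heart and kidney overlapped, and that of brain overlapped with heart and kidney. On day 1 alone the vessel array (162) lay within the heart arrays (83.5 to 250).

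In vessel, where each time is a single array and no test is possible, Gzmb and Gzma were high on days 1 and 3. Gzmb read 44.9, 162, 115 and 33.3 on days 0, 1, 3 and 7, and Gzma 36.5, 140, 89.4 and 26.8. Ccl5 read 160, 348, 467 and 105, with its maximum on day 3. Against day 0, 3 of the 9 genes were at least 2-fold higher on day 1 (Gzma 2.97-fold, Gzmb 2.93-fold, Ccl5 2.06-fold), where 0.688% of all genes were. On day 3, 4 of 9 were (Ccl5, Klrd1, Gzmb and Gzma, at 2.74, 2.25, 2.15 and 2.01-fold), where 4.94% of all genes were, and on day 7 none was, where 4.23% of all genes were. None of the 9 was at least 2-fold lower on days 1, 3 or 7, where 0.765%, 1.32% and 1.26% of all genes were.

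Klrd1 in vessel read 28.8, 43.3, 84.7 and 48.5 and Cd3g 21, 29.3, 46.2 and 45.3, both highest on day 3, while Prf1 (44.5, 42.2, 35 and 32.3) and Il2rb (33 to 41.5) stayed close to their day 0 values or below them. The day 3 vessel array differed from the others in its tissue: Myh6 read 324 there against 4370, 2420 and 3710 on days 0, 1 and 7, and the macrophage median stood 2.19 above day 0 against 0.61 and 1.39 on days 1 and 7. The part of this difference in the vessel values was not tested, and whether the heart and vessel differ in the time course of these genes cannot be told from single arrays.

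**Figure D5:**
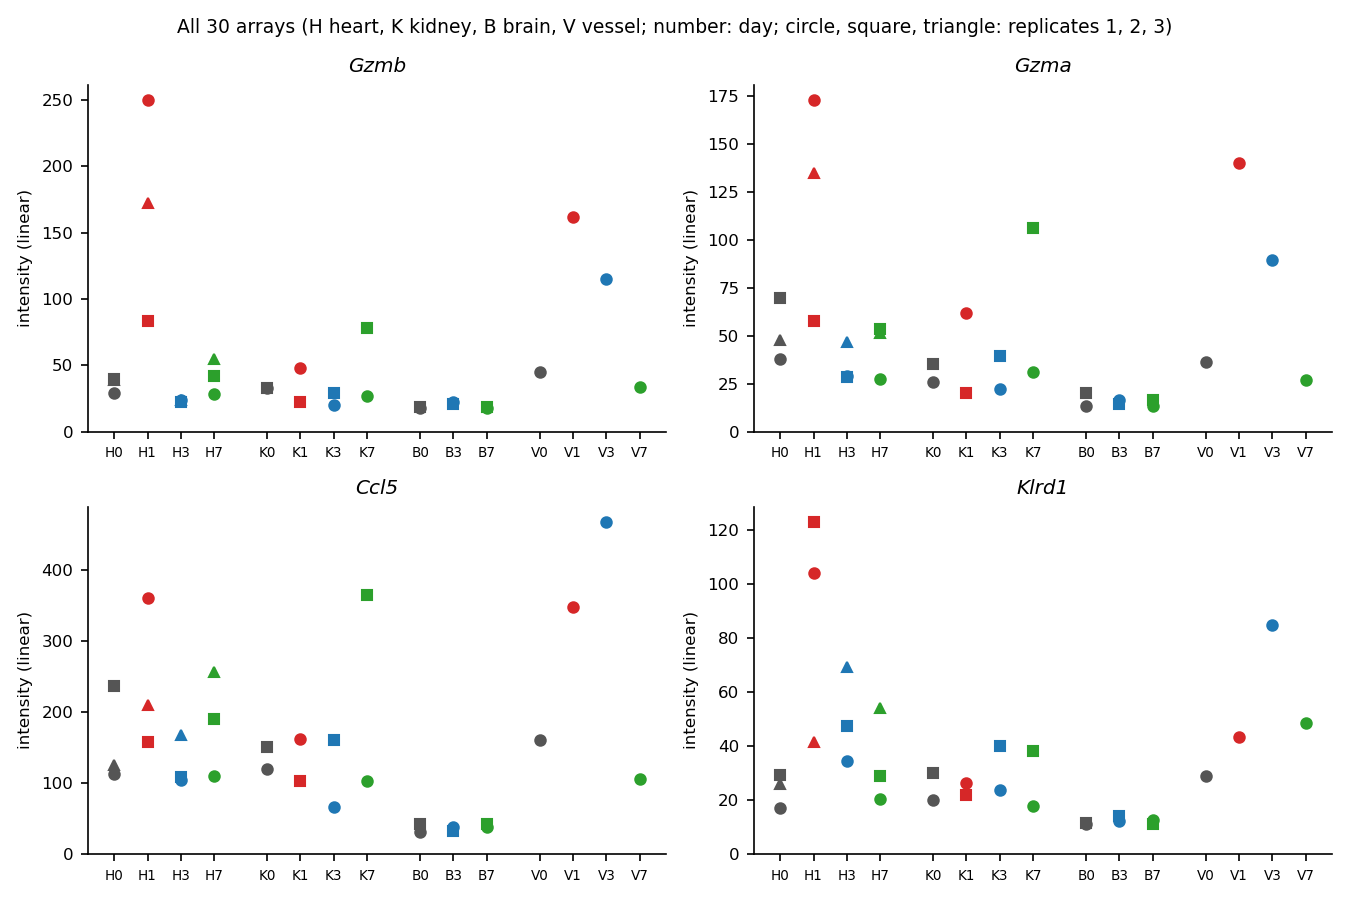
Deposited intensity (linear axis from 0) of Gzmb, Gzma, Ccl5 and Klrd1 on all 30 arrays, by tissue and day; each point is an array and the shape gives the replicate. Gzmb exceeds 80 only on the 3 heart arrays of day 1 and the vessel arrays of days 1 and 3, and the brain arrays lie below all others for Gzma, Ccl5 and Klrd1.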

How the data were processed

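RNA of heart, kidney, brain and vessel was measured on 30 Affymetrix Mouse Genome 430 2.0 arrays in 15 groups, by tissue and day as the labels state them. What the authors deposited is a linear intensity for every probe set of every array; the submitters' processing notes name Affymetrix Expression Console (algorithm and version: not given in the sources used here). Array medians were near-equal and no further normalization was applied; the number of arrays limits the precision.

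The 64 control probe sets among 45101 were dropped, and a single symbol was given for 34945 of the rest, several for 932 and none for 9160. The brightest probe set over all arrays stood for each gene. Values were analysed as log2(intensity + 16). After the filter on low values (40th percentile of each array), heart had 13966 genes to test, kidney 14149, brain 14097 and vessel 14248. A model of group means was fitted to each tissue with limma (version 3.58.1, R version 4.3.3), with Benjamini-Hochberg adjustment over all genes tested and a threshold of 0.05. Differences between tissues came from a joint fit of the 26 arrays of heart, kidney and brain, for genes that passed the filter in either tissue compared. For vessel, which has 1 array at each time, differences are given without a test.

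Correlations with Gzmb used two-sided permutation tests, exact below 10 arrays and with 100000 resamples otherwise, in 3 families (12 and 9 heart arrays, 8 kidney arrays), adjusted over all genes tested and not, as first planned, over the 9 relations. Arrays were shuffled without regard to day.

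The 10 genes and the lists were chosen with earlier results of these data known, so their agreement with those results is not independent. The rule named all 10 genes, up to 6 passing genes of each list or the 2 with the smallest p, and the 5 genes most correlated with Gzmb; others are said to be chosen after their values were seen. Adrenal and fat markers and the 9-array correlation were added after the data were seen. Alternatives were added values of 1 and 64, no filter, other probe set rules, quantile normalization, trended and robust variances, other sets of arrays, a replicate block and leaving out each array. The code was tested on simulated data. Other software was numpy 2.4.6, pandas 2.3.3 and matplotlib 3.10.9 in Python 3.11.15.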

Additional observations from a re-analysis of the deposited data

Results flagged for a closer look

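The day 1 change of Gzmb differed between heart and kidney by a test of the difference itself: the heart change exceeded the kidney change by 1.70 ± 0.46 on the log2 scale (limma, adjusted p 0.048). The call did not hold in 7 of 10 fits without a single array (adjusted p up to 0.21), nor with no filter, every probe set by itself, log2(value + 1), trended and robust variances or the replicate block (0.052 to 0.064). Gzmb was higher than in every day 0 array on 3 of 3 day 1 heart arrays and on 1 of 2 day 1 kidney arrays.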

How the results depend on the processing

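Gzmb rose from day 0 to day 1 in heart under every alternative run, and the number of members that rose stayed at 2 under all but the single-array omissions (1 to 2). From day 1 to day 3, where 2 fell, 1 passed with no filter or with the replicate block and 0 with only the 2 groups compared, and 0 to 4 without a single array. From day 1 to day 7, where 1 fell, 2 passed after quantile normalization or in the joint fit, 0 with only the 2 groups compared, and 0 to 2 without a single array. For the heart minus kidney response at day 1, 1 passed as reported, and 0 with no filter, every probe set by itself, log2(value + 1), trended and robust variances or the replicate block (adjusted p of Gzmb 0.052 to 0.064); without a single array it was 0 to 2. Heart against brain at day 0 gave 6 with log2(value + 1), 1 with log2(value + 64) and 1 to 3 without a single array, where 3 were reported. Kidney against brain at day 0 gave 2 with no filter, with the mean of probe sets or with trended and robust variances, 3 with every probe set by itself or log2(value + 1), and 0 to 2 without a single array, where 1 was reported. With every probe set by itself, Prf1 turned sign, to 0.37 for heart against brain and 0.28 for kidney against brain, since its second probe set was then read. The number of members correlated with Gzmb at an unadjusted permutation p under 0.05 in heart was 2 to 6 without a single array, where 5 were reported. Where only 1 array of a pair was left, its spread was taken to equal that of the remaining groups.

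The correlation of deviations from the group means between same-numbered arrays ran from -0.33 to 0.15 in heart (median -0.09, against 0.04 for different numbers). It ran from -0.09 to 0.25 in kidney (median 0.15) and from -0.65 to 0.47 in brain (median -0.58). In kidney and brain, with 2 arrays a group, the values for different numbers (-0.15 and 0.58) are these with the sign turned. They give no separate reference. Not every pair exceeded 0.1 in any tissue, so the arrays were taken to share only a number. With the replicate block, 2 members rose in heart at day 1 and Gzma from day 1 to day 3 had an adjusted p of 0.050. Signals near the low range limit what Klrk1, Ncr1, Cd3g, the day 0 values of Klrd1 and most brain values can show.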
